A study of Homo sapiens with 4 samples.

Results

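The kinesin genes were examined in SAS cells, an established line from a human tongue squamous cell carcinoma, in libraries labelled as carrying a control siRNA or an siRNA against NAT10. Members were the rows of the deposited gene table named KIF with a number and at most one further letter and digit, or KIFC with a number, and hyphenated names were left out. This gave 40 of 35767 rows, of which 35 passed a filter on low counts and were tested. The group labelled siControl held 2 libraries with the genotype label WT. The group labelled siNAT10 held 2 libraries, of which replicate 1 carries the genotype label NAT10 knockdown and replicate 2 the label NAT11 knockdown, NAT11 being another name of NAA40. The sample descriptions read NC_1 and NC_2 for the libraries labelled siControl, and KO_1 and KO_2 for those labelled siNAT10. The sources used here give no siRNA sequence, dose or time. Replicates are called biological, but whether each came from its own culture is not said, and p-values then reflect the spread among 4 libraries, possibly a technical one.

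NAT10, an acetyltransferase that modifies cytidines in RNA, was at 240.4 and 231 CPM under siControl (replicate 1, then 2), against 253 and 248 CPM under the siNAT10 label (CPM, counts scaled to a common library size). The groups did not overlap, and the libraries labelled siNAT10 were the higher ones, with a log2 fold change of 0.088 ± 0.06 (SE, edgeR adjusted p = 0.293) and a 95% interval from -0.045 to 0.22. With scaling by library totals alone it was -0.024. A called loss of the targeted mRNA was thus not seen, and each direction below follows the library labels. NAA40 was at 22.1 and 18.8 CPM against 18.6 and 18.2 CPM and was not called (edgeR adjusted p = 0.255). Total counts lay between 30794757 and 36341785 per library. Of the epithelial markers checked, KRT8, KRT18, KRT17 and SFN had means between 236 and 2006 CPM in every group, whereas KRT5, TP63, DSG3 and PKP1 stayed under 1 CPM and CDH1 was at 1.26 and 1.29 CPM against 1.04 and 0.779 CPM. EPCAM was at 7.41 and 8.35 CPM against 3.81 and 4.13 CPM and KRT14 at 4.04 and 4.12 CPM against 1.97 and 1.86 CPM. Of 10 neuronal markers, 6 stayed under 1 CPM in each library, and PTPRC, the pan-leukocyte marker, was at no more than 0.105 CPM.

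Kinesins use the energy of ATP to move along microtubules, and most walk towards the growing plus end. One branch of the family works in dividing cells, where its members slide spindle microtubules apart, position chromosomes, trim microtubule ends and build the midzone on which a cell is cleaved. Another branch carries vesicles, mitochondria and ciliary cargo through interphase cells, often with light chains or adaptors that choose the cargo. Mitotic kinesin genes are known for being transcribed late in the cell cycle, which makes them common markers of proliferating carcinoma cells. The members were sorted by these known roles into 13 mitotic, 15 transport and 12 other kinesins, the last with roles in microtubule dynamics, Hedgehog signalling or cilia, or with several roles.

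Mitotic kinesin genes were mostly higher in the libraries labelled siNAT10, while transport and other kinesins went both ways. Of 13 tested mitotic members, 11 were called higher (adjusted p under 0.05) and none lower, and of 13 tested transport members 2 were higher and 3 lower. Of 9 tested other members, 1 was higher and 2 were lower. In all, 19 of 35 tested members were called, 14 higher and 5 lower, beside 40.4% of all 20098 tested rows, 19.7% higher and 20.7% lower. Well expressed rows were called more often: among rows of at least 10 CPM on average, 55.4% were called, 30.2% higher and 25.2% lower. At that level 11 of 12 mitotic members were higher, against 2 higher and 3 lower of 11 transport members. The groups did not overlap for 12 of 13 mitotic, 8 of 13 transport and 6 of 9 other members, beside 69.5% of all tested rows. The median log2 fold change was 0.43 over the mitotic, 0.03 over the transport and -0.14 over the other members, and -0.0079 over all tested rows. Under scaling by library totals alone, the median stood at -0.12 over all rows, 0.32 over mitotic and -0.082 over transport members, whose sign thus changed, and 7 mitotic members were higher, 3 transport members were lower and none higher, and 1 other member was higher and 3 were lower. That scaling gave 8 higher and 6 lower members in all, against 2688 higher and 5604 lower rows in the whole table.

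**Figure D1:**
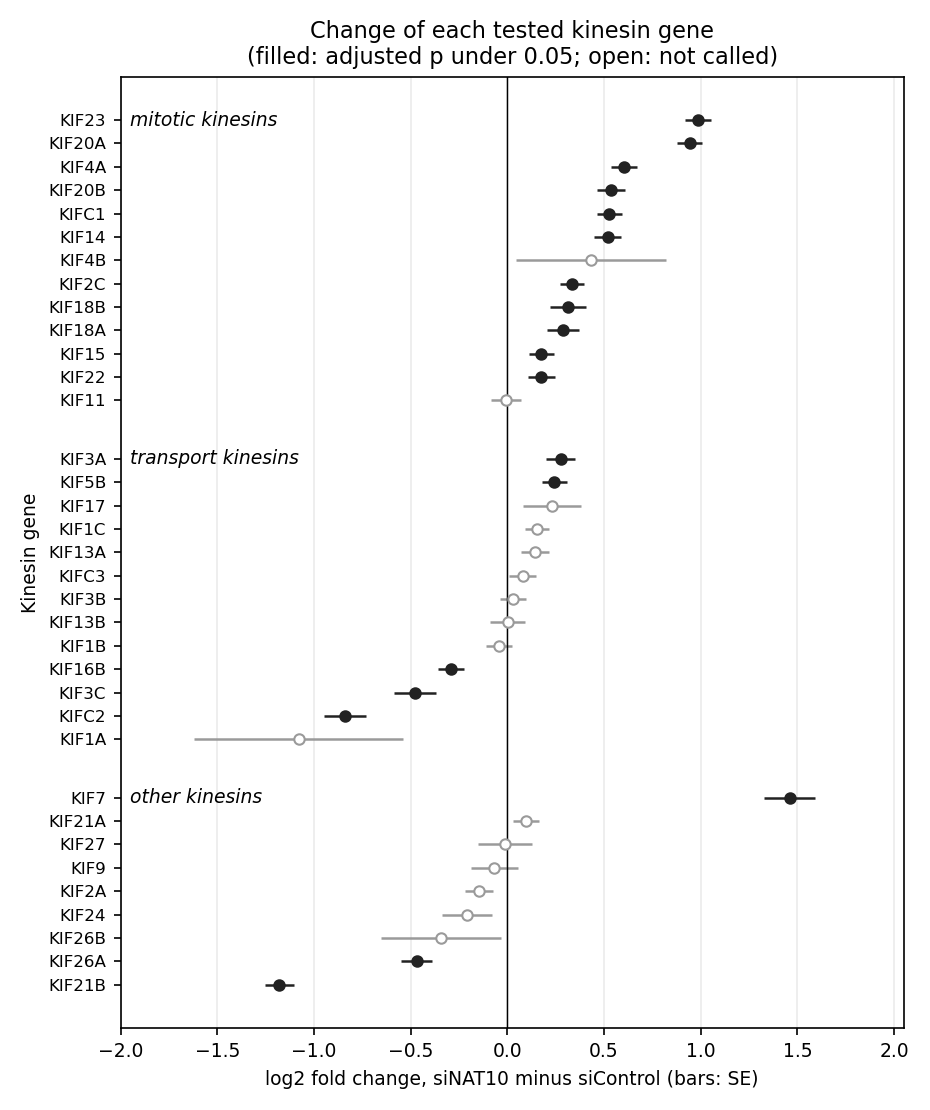
Log2 fold change of each tested kinesin gene (x axis, siNAT10 minus siControl, bars showing the SE) by class, with filled points for adjusted p under 0.05. Of the 13 mitotic genes 11 are filled and lie to the right of 0, while KIF21B, KIFC2, KIF3C, KIF26A and KIF16B are filled on the left.

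Because most mitotic members moved together, their promoters are shown first. Many genes transcribed in G2 and mitosis carry a cell cycle homology region (CHR), a short element bound by the MuvB core of the DREAM and MYB-MuvB complexes, often downstream of CCAAT boxes bound by NF-Y. In RefSeq promoters (GRCh38.p14, 250 bases before to 50 after the transcript start), TTTGAA or TTTAAA was searched as a CHR-type hexamer and CCAAT as an NF-Y box, each on both strands. TTTAAA reads the same on both strands, and a hexamer and a CCAAT box may share an end base. Of the 40 members, 32 matched a RefSeq promoter, among them all 13 mitotic members. The transport members KIFC2, KIFC3, KIF13B and KIF5A and the other members KIF21B, KIF26B, KIF27 and KIF19 had none and were not searched. KIF21B and KIFC2 were the members called at least 1.5-fold lower. The last 100 bases before the start are printed below for the 3 mitotic kinesins with the smallest adjusted p among those with a CHR-type hexamer there, and for KIF11, added after its values were seen because it was not called, with the motifs in capitals (ATTGG and TTCAAA are CCAAT and TTTGAA on the other strand).
KIF23, chr15:69414249-69414348, plus strand: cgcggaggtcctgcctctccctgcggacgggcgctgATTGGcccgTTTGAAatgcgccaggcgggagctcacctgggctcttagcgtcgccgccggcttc
KIF20A, chr5:138179012-138179111, plus strand: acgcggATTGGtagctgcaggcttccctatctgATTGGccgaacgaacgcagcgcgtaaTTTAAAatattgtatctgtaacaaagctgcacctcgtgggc
KIF4A, chrX:70290004-70290103, plus strand: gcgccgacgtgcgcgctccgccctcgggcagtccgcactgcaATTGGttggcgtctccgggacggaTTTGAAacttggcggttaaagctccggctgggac
KIF11, chr10:92593030-92593129, plus strand: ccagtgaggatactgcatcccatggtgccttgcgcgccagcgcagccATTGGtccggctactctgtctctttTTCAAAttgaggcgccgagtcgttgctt
In each of the 4 stretches a CHR-type hexamer follows an NF-Y box by a short distance. This holds for the uncalled KIF11 and for the 3 called members printed. In these windows a CHR-type hexamer was found for 12 of 13 mitotic members, 2 of 11 transport members and 0 of 8 other members, beside 24.0% of all 35116 promoters and 27.9% of all 27305 genes with one. The exception was KIF22. CCAAT was found for 11 of 13 mitotic, 4 of 11 transport and 2 of 8 other members, beside 34.6% of all promoters and 39.7% of genes with one. Both lay in the promoters of 10 mitotic members and 1 transport member, KIF5B, beside 9.27% of all promoters and 11.2% of genes with one. The 12 mitotic genes each had a hexamer whose first base lay between positions -55 and 31, the first transcribed base being 1, while that of KIF5B lay at -140 and that of KIF16B at -241. The deposited rows of KIF23, KIF20A and KIF4A begin upstream of the RefSeq start used here, and the printed stretches of KIF23 and KIF20A lie wholly, that of KIF4A partly, inside the rows. A match describes letters in a window and shows no binding.

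**Figure D2:**
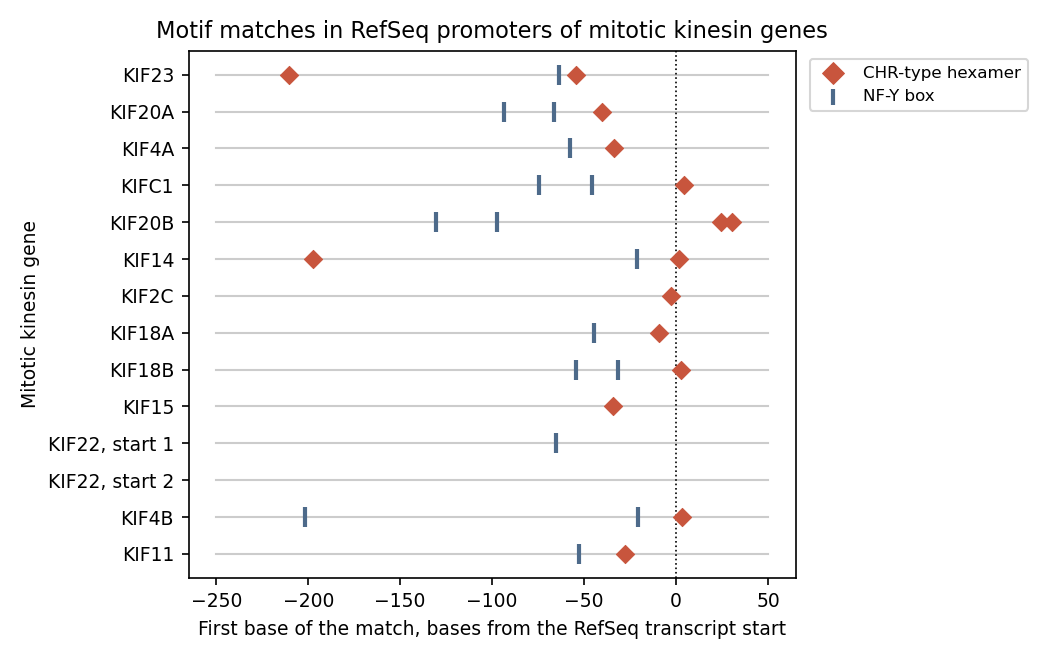
First base of each CHR-type hexamer (diamonds) and NF-Y box (bars) in the RefSeq promoters of the mitotic kinesin genes, in bases from the transcript start (x axis), with genes in order of adjusted p. A hexamer lies between positions -55 and 31 in 12 of 13 genes, and KIF22, which has 2 listed starts, has none.

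The 3 largest called rises among mitotic members were those of KIF23, KIF20A and KIF4A, which act at the spindle midzone and in cleavage. KIF23 (chromosome 15, 69414246 to 69448427, GRCh38), the motor subunit of centralspindlin that drives cytokinesis, was at 102 and 93.8 CPM under siControl (replicate 1, then 2), against 192 and 197 CPM under the siNAT10 label. Both libraries labelled siNAT10 stood well above both controls, and the log2 fold change was 0.99 ± 0.07 (SE, edgeR adjusted p = 1.21e-09), a 1.98-fold rise. KIF20A (chromosome 5, 138178719 to 138187715), which brings the chromosomal passenger complex to the midzone, was at 143 and 155 CPM against 284 and 289 CPM, with a log2 fold change of 0.94 ± 0.07 (SE, edgeR adjusted p = 1.44e-09). Its controls, too, were the lower libraries by a wide margin. KIF4A (chromosome X, 70290090 to 70420832), a chromosome-bound motor that limits midzone length together with PRC1, was at 142 and 129 CPM against 204 and 208 CPM, a log2 fold change of 0.60 ± 0.07 (SE, edgeR adjusted p = 7.98e-07). These 3 genes were the mitotic members called at least 1.5-fold higher, beside 7.2% of all rows.

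KIF20B (chromosome 10, 89701610 to 89774939), a motor needed to complete cytokinesis, was at 209.9 and 182 CPM against 287 and 281 CPM, and its control libraries differed more from each other than the other pair did. Its log2 fold change was 0.54 ± 0.07 (SE, edgeR adjusted p = 6.13e-06). KIF14 (chromosome 1, 200551497 to 200620734), which works with citron kinase at the midbody, was at 99.8 and 91.5 CPM against 139.8 and 134 CPM, a log2 fold change of 0.52 ± 0.07 (SE, edgeR adjusted p = 6.54e-06). Neither gene had an overlapping row, and in both the groups stood apart. Rows on the opposite strand that overlap the first 3 genes in their exons covered a small share of the kinesin's exonic length. RP11-253M7.1 covered 3.62% of KIF23, BRD8 and CDC23 covered 3.34% and 1.72% of KIF20A, and PDZD11 covered 1.7% of KIF4A. BRD8 (log2 fold change 0.66 ± 0.07, edgeR adjusted p = 4.55e-07) and PDZD11 (0.29 ± 0.10, edgeR adjusted p = 0.0247) were themselves higher. CDC23 and RP11-253M7.1 were not called.

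Motors that organise the spindle poles and move chromosomes rose by up to 1.44-fold or were not called. KIFC1 (chromosome 6, 33391536 to 33409924), a minus-end motor that clusters centrosomes, was at 228 and 238 CPM under siControl (replicate 1, then 2), against 333 and 338 CPM under the siNAT10 label. The siNAT10-labelled pair was higher without overlap, and the log2 fold change was 0.53 ± 0.06 (SE, edgeR adjusted p = 1.85e-06). The pseudogene row RPL12P1 covers 12.7% of its exonic length and held between 3 and 5 counts. KIF2C (chromosome 1, 44739818 to 44767767), a depolymerase that corrects faulty chromosome attachments, was at 249 and 262 CPM against 316 and 328 CPM, with a log2 fold change of 0.33 ± 0.06 (SE, edgeR adjusted p = 3.34e-04). It was higher in both libraries labelled siNAT10, and ranked among the 3 highest members per length. RP11-269F19.2, on the other strand, covers 4.8% of its exonic length and was itself higher (log2 fold change 0.28 ± 0.079, edgeR adjusted p = 0.00751).

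KIF18A, which damps chromosome movements at metaphase, was at 36.2 and 34.6 CPM against 46.2 and 40.2 CPM, a log2 fold change of 0.29 ± 0.09 (SE, edgeR adjusted p = 0.0104). KIF18B, its relative on astral microtubules, was at 23.9 and 21.2 CPM against 27.7 and 28.3 CPM, with a log2 fold change of 0.31 ± 0.09 (SE, edgeR adjusted p = 0.0104). In both genes the groups were separate but close. The call of KIF18A was lost without siNAT10 replicate 1 (0.19, adjusted p = 0.195), and that of KIF18B without siControl replicate 2 (0.23, 0.0884) or siNAT10 replicate 2 (0.30, 0.0564), all by edgeR. Both were also lost with scaling by totals (edgeR adjusted p = 0.11 and 0.0931), and held in the other alternatives, 9 and 8 of 11.

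KIF15, a plus-end motor that helps keep the spindle bipolar, was at 175 and 171 CPM against 198 and 193 CPM and was called by a narrow margin (0.18 ± 0.06 SE, edgeR adjusted p = 0.0341). KIF22, a chromosome-arm motor of the polar ejection force, was at 75.3 and 79.9 CPM against 87.1 and 88.2 CPM, with a log2 fold change of 0.17 ± 0.07 (SE, edgeR adjusted p = 0.0483). Both showed separate groups and rises of 1.13-fold. The row AC009133.21 lies wholly inside the exons of KIF22 on the other strand, covers 13.0% of them, and was itself called higher (log2 fold change 0.40 ± 0.14, edgeR adjusted p = 0.0267). KIF15 lost its call in 5 of 11 alternatives, among them those without siNAT10 replicate 1 (0.16, edgeR adjusted p = 0.213) or replicate 2 (0.20, 0.121), with totals (0.455) and without a count filter (0.0544). KIF22 lost it in 7 of 11, among them those without siControl replicate 1 (0.13, edgeR adjusted p = 0.177), siNAT10 replicate 1 (0.19, 0.147) or siNAT10 replicate 2 (0.17, 0.208), with totals (0.483), with DESeq2 (0.1) and without a count filter (0.0845).

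KIF11 (chromosome 10, 92593286 to 92655395), the motor better known as Eg5 that pushes the spindle poles apart, was the well expressed mitotic member without a call. It was at 193 and 236 CPM under siControl (replicate 1, then 2), against 216 and 211 CPM under the siNAT10 label. The control libraries lay on either side of the other pair, so the groups overlapped, and the log2 fold change of -0.0076 ± 0.08 (SE, edgeR adjusted p = 0.95) had a 95% interval from -0.17 to 0.16. That interval lies below the estimates of the 6 mitotic members with the smallest adjusted p; no difference between genes was tested. KIF4B, an intronless copy of KIF4A, held 22 to 36 counts and was at 0.735 and 0.593 CPM against 1.04 and 0.745 CPM (log2 fold change 0.43 ± 0.39 SE, edgeR adjusted p = 0.407), and reads of the near-identical KIF4A could be assigned to it.

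**Figure D3:**
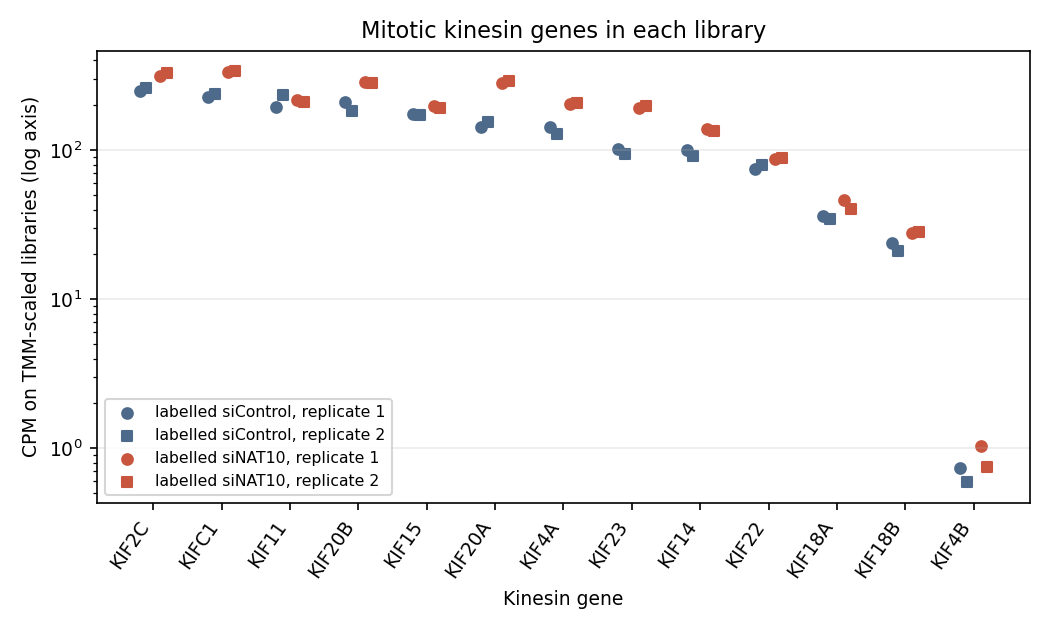
CPM of each mitotic kinesin gene (log axis) in the 4 libraries, with circles for replicate 1 and squares for replicate 2. The libraries labelled siNAT10 lie above both controls for every gene except KIF11, where they lie between them.

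Genes outside the naming rule that belong to the same motor family or work with mitotic kinesins moved the same way in most cases. CENPE, a kinetochore kinesin, was at 249 and 212 CPM against 281 and 274 CPM (log2 fold change 0.27 ± 0.07 SE, edgeR adjusted p = 0.00701). STARD9, a centrosomal kinesin, was at 15.3 and 12.7 CPM against 19.5 and 18.9 CPM (log2 fold change 0.46 ± 0.11 SE, edgeR adjusted p = 0.00217). KIF28P, the remaining family row, was at 1.42 and 0.754 CPM against 1.24 and 0.779 CPM and was not called. Of these 3 genes 2 were higher, and 1 with totals or without siControl replicate 2. Of 24 partners of mitotic kinesins, 20 were called higher and none lower, with a median log2 fold change of 0.32. The shares called higher were 19.7% of all rows and 30.2% of rows of at least 10 CPM.

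The partners with the smallest adjusted p were TACC3, which stabilises spindle microtubules (174 to 307 CPM, group means, log2 fold change 0.82 ± 0.07), DLGAP5, a spindle fibre protein (63.9 to 113 CPM, 0.83 ± 0.07), the mitotic cyclin CCNB1 (144 to 242 CPM, 0.75 ± 0.07) and HMMR, a spindle pole protein (81.3 to 139.5 CPM, 0.78 ± 0.07). Their edgeR adjusted p was at most 3.84e-08. The list was chosen with earlier results on mitotic genes of these libraries known, so its direction is no independent evidence. A larger share of cells in G2 and mitosis and more of these mRNAs per cell cannot be told apart in bulk RNA.

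S phase genes moved in both directions. Of 20, 4 were higher and 6 lower, beside 40.4% called of all rows and 55.4% of rows of at least 10 CPM. The median was -0.13, and with scaling by totals 3 were higher and 11 lower. Without siNAT10 replicate 2 there were 3 higher and 3 lower. The transcription factor E2F1 went from 33.5 to 21.8 CPM (-0.62 ± 0.10) and the replication helicase subunit MCM2 from 425 to 335 CPM (-0.34 ± 0.07), both lower. The ribonucleotide reductase subunit RRM2 was higher (123 to 157 CPM, 0.35 ± 0.07). The edgeR adjusted p of these 3 genes was at most 5.77e-04.

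Of 16 regulators of mitotic gene transcription, 5 were higher and 2 lower, with a median of 0.10. The 43.8% called was near the 40.4% of all rows, and lay below the 55.4% of rows of at least 10 CPM. FOXM1, an activator of late cell cycle genes, went from 58.2 to 71.7 CPM (0.30 ± 0.08 SE, edgeR adjusted p = 0.00435), and MYBL2, the MYB partner of the MuvB core, from 258 to 338 CPM (0.39 ± 0.07 SE, edgeR adjusted p = 2.09e-04). The NF-Y subunit NFYA went from 27.2 to 34.9 CPM (0.36 ± 0.08 SE, edgeR adjusted p = 0.00173), and E2F5, a DREAM-type E2F, from 5.75 to 10.4 CPM (0.85 ± 0.14 SE, edgeR adjusted p = 9.31e-05). Totals scaling gave 3 higher and 4 lower regulators, DESeq2 size factors in edgeR gave 6 and 1, and the DESeq2 test gave 4 and 0. Without siNAT10 replicate 2, 3 were higher and 2 lower.

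Transport kinesins of the kinesin-1 type, which carry mitochondria, vesicles and RNA granules, were represented by KIF5B. KIF5B (chromosome 10, 32009010 to 32056431) had the highest level of all members per length and was at 580.3 and 571 CPM under siControl (replicate 1, then 2), against 699 and 663 CPM under the siNAT10 label. Both libraries labelled siNAT10 were higher, a 1.18-fold difference with a log2 fold change of 0.24 ± 0.06 (SE, edgeR adjusted p = 0.00427). The call was lost without siNAT10 replicate 1 (0.21, edgeR adjusted p = 0.0848) and with totals (0.13, edgeR adjusted p = 0.109). The neuronal forms KIF5A and KIF5C were under the filter, with 7 to 10 and 0 to 14 counts per library, where a count of 0 allows up to 3 counts, 0.102 CPM in siNAT10 replicate 2.

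The kinesin light chains, which bind KIF5 tails and select cargo, went both ways. KLC1 was at 167 and 169 CPM against 194 and 186 CPM and was called higher (log2 fold change 0.18 ± 0.06 SE, edgeR adjusted p = 0.0316). KLC2 was at 62.7 and 67.4 CPM against 63.4 and 58.1 CPM, with overlapping groups and no call (edgeR adjusted p = 0.318). KLC3 was at 20.6 and 25.6 CPM against 15.1 and 12.7 CPM, a log2 fold change of -0.72 ± 0.12 (SE, edgeR adjusted p = 5.73e-05), and KLC4 at 55.8 and 55.7 CPM against 46.4 and 44.6 CPM, a log2 fold change of -0.29 ± 0.07 (SE, edgeR adjusted p = 0.0034). Both of these were lower in each library labelled siNAT10. With KIFAP3, the kinesin-2 accessory subunit (19.7 and 19.0 CPM against 18.3 and 22.2 CPM, edgeR adjusted p = 0.678), the list had 1 higher and 2 lower of 5 genes, 0 and 3 with totals, 0 and 2 without siNAT10 replicate 1, and 0 and 1 without siNAT10 replicate 2. The call of KLC1 was thus lost in each of these.

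Kinesin-2 motors, which drive cargo into cilia as well as along axons, split. KIF3A (chromosome 5, 132692628 to 132737638), a subunit of the heterotrimeric ciliary motor, was at 50.7 and 47.2 CPM under siControl (replicate 1, then 2), against 58.5 and 60.0 CPM under the siNAT10 label. Its groups were separate and the log2 fold change was 0.28 ± 0.07 (SE, edgeR adjusted p = 0.0056), lost without siNAT10 replicate 2 (0.26, edgeR adjusted p = 0.0512) and with totals (0.16, edgeR adjusted p = 0.0891). KIF3B, its usual partner, was at 111 and 106 CPM against 113 and 109 CPM, with overlapping groups and a 95% interval of the log2 fold change from -0.11 to 0.17. KIF3C (chromosome 2, 25926596 to 25982749), an alternative partner, was at 16.8 and 17.9 CPM against 13.2 and 11.7 CPM and was lower (log2 fold change -0.48 ± 0.11 SE, edgeR adjusted p = 0.00155). KIF17, the homodimeric member, was at 6.09 and 6.76 CPM against 8.47 and 6.54 CPM and was not called.

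Of the kinesin-3 motors of endosomes and synaptic and secretory vesicles, KIF16B was called. KIF16B (chromosome 20, 16272104 to 16573434), which moves early endosomes, was at 141 and 146 CPM under siControl (replicate 1, then 2), against 122 and 112 CPM under the siNAT10 label. It was lower in both libraries labelled siNAT10, with a log2 fold change of -0.29 ± 0.07 (SE, edgeR adjusted p = 0.00182), and lost its call without siNAT10 replicate 2 (-0.23, edgeR adjusted p = 0.0702). KIF1C (chromosome 17, 4997948 to 5028401), a motor of integrin vesicles and dense core vesicles, was at 375 and 378 CPM against 416 and 422 CPM. Its groups were separate, but its log2 fold change of 0.15 ± 0.06 (SE, edgeR adjusted p = 0.0556) missed the threshold, and was called with DESeq2 size factors (edgeR adjusted p = 0.0472), with DESeq2 (0.0386) and without siControl replicate 2 (0.16, edgeR adjusted p = 0.044).

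KIF13A, which carries recycling endosomes, was at 69.7 and 65.7 CPM against 73.3 and 76.3 CPM, and its 95% interval for the log2 fold change ran from -0.004 to 0.29. KIF1B, a carrier of mitochondria and synaptic vesicle precursors, was at 132 and 122 CPM against 124 and 122 CPM, with an interval from -0.18 to 0.10. Its groups overlapped. KIF13B was at 26.7 and 24.5 CPM against 26.1 and 25.1 CPM, with an interval from -0.19 to 0.19, and KIF1A, the neuronal form, at 0.578 and 0.485 CPM against 0.231 and 0.271 CPM, on 8 to 22 counts per library. Neither was called.

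The minus-end motor KIFC2, known from neuronal transport, had the largest fall among the called transport members. It was at 15.8 and 16.2 CPM under siControl (replicate 1, then 2), against 9.02 and 8.88 CPM under the siNAT10 label. The groups were far apart, with a log2 fold change of -0.84 ± 0.11 (SE, edgeR adjusted p = 6.23e-06), a 1.79-fold difference. Its exons share 17.8% of their length with FOXH1 on the other strand, which was lower too (98 and 84 counts against 44 and 38). In counts KIFC2 held 603 and 601 under siControl against 312 and 262. At the mean density of FOXH1, the shared bases would hold 31.0 and 26.5 counts under siControl against 13.9 and 12.0. How far reads of FOXH1 enter the value of KIFC2 was not tested. KIFC3, a minus-end motor of epithelial junctions and the Golgi, was at 123 and 129 CPM against 139 and 126 CPM, with overlapping groups and a 95% interval from -0.066 to 0.22.

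Of the 22 tested cargo adaptors and binding partners of transport kinesins, 3 were higher and 6 lower, a median of -0.10, and with totals 2 were higher and 8 lower. The 40.9% called was near the 40.4% of all rows. DENND5B went from 36.5 to 17.9 CPM (-1.03 ± 0.09), HAP1, a huntingtin-associated adaptor of KIF5, from 15.1 to 9.11 CPM (-0.72 ± 0.12), and the mitochondrial GTPase RHOT2 (Miro2) from 59.8 to 46.3 CPM (-0.37 ± 0.09). Its relative RHOT1 (Miro1) went the other way, from 15 to 20.0 CPM (0.41 ± 0.10). The edgeR adjusted p of these 4 genes was at most 0.00254.

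Dynein, the motor that runs towards the minus end against kinesins, and its cofactors also went both ways. Of 30 tested genes 7 were higher and 8 lower (5 and 11 with totals), with a median of -0.023. The shares called were 40.4% of all rows and 55.4% of rows of at least 10 CPM. The adaptor HOOK2 (71.3 to 36.6 CPM, -0.96 ± 0.08), the light intermediate chain DYNC1LI2 (229 to 162 CPM, -0.50 ± 0.07) and the regulator PAFAH1B1, or LIS1 (76.7 to 55.6 CPM, -0.46 ± 0.07) were lower. The dynactin subunit DCTN6 was higher (22.3 to 33.3 CPM, 0.57 ± 0.09), and the edgeR adjusted p of these 4 was at most 6.89e-05. Of 20 genes of intraflagellar transport, the cargo trains moved by kinesin-2, 5 were higher and 3 lower (4 and 5 with totals), with a median of 0.082, a share near that of all rows. IFT122 (0.36 ± 0.07), IFT88 (0.49 ± 0.11) and IFT74 (1.53 ± 0.37) were higher. IFT74 was low in both groups, with means of 0.48 CPM under siControl and 1.40 CPM under the siNAT10 label. IFT46 (-0.59 ± 0.15) was lower. For each of these genes edgeR gave an adjusted p no larger than 0.003.

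The largest changes of the family lay outside both classes. KIF21B (chromosome 1, 200969390 to 201023700), a motor that slows and pauses microtubule growth, was at 169 and 190.2 CPM under siControl (replicate 1, then 2), against 82.3 and 76.3 CPM under the siNAT10 label. Each library labelled siNAT10 held less than either control by a wide margin, a 2.27-fold lower level with a log2 fold change of -1.18 ± 0.07 (SE, edgeR adjusted p = 3.06e-10), and no other row overlapped its exons. Its paralog KIF21A, at 217 and 200.2 CPM against 229.7 and 217 CPM, had overlapping groups and was not called (log2 fold change 0.10 ± 0.07 SE, edgeR adjusted p = 0.269, 95% interval -0.044 to 0.24). KIF21B and KIFC2 were the members called at least 1.5-fold lower, beside 11.4% of all rows. KIF26A (chromosome 14, 104138723 to 104180894), a family member without motor activity, was at 53.7 and 55.3 CPM against 41.7 and 37.0 CPM, lower with a log2 fold change of -0.47 ± 0.08 (SE, edgeR adjusted p = 9.80e-05). Its relative KIF26B was at 1.86 and 1.21 CPM against 1.33 and 1.08 CPM, and was not called (95% interval -0.99 to 0.30).

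KIF7 (chromosome 15, 89608789 to 89655451), a ciliary-tip regulator of Hedgehog signalling, was at 4.99 and 4.93 CPM under siControl (replicate 1, then 2), against 14.7 and 12.5 CPM under the siNAT10 label, a 2.75-fold rise with a log2 fold change of 1.46 ± 0.13 (SE, edgeR adjusted p = 5.98e-08). Both libraries labelled siNAT10 lay far above the controls, which were nearly equal. In counts these were 190 and 183 against 510 and 368. KIF7 shares 589 bases, 11.8% of its exonic length, with TICRR, a replication initiation gene on the other strand. TICRR had 1844 and 1625 counts under siControl against 2709 and 2459 (log2 fold change 0.81 ± 0.075, edgeR adjusted p = 6.45e-08). At the mean density of TICRR, those 589 bases would hold 129 and 114 counts under siControl against 190 and 172. How many of them were counted for KIF7 was not tested, and the sources used here do not give the strand setting.

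KIF2A, a microtubule depolymerase of neurons and spindle poles, was at 71.2 and 66.6 CPM under siControl (replicate 1, then 2), against 63.8 and 60.8 CPM under the siNAT10 label. Its groups were separate, but the log2 fold change of -0.14 ± 0.07 (SE, edgeR adjusted p = 0.116) was called only with totals (-0.26, edgeR adjusted p = 0.00839) or without siControl replicate 2 (-0.19, edgeR adjusted p = 0.0479) among the 11 alternatives, and 8.97% of its length is shared with IPO11 on the same strand, itself higher (log2 fold change 0.41 ± 0.10, edgeR adjusted p = 0.00394). KIF9, KIF24 and KIF27, all linked to cilia, had means between 8.04 and 11.3 CPM and log2 fold changes from -0.21 to -0.013, none called. UBAP1, on the other strand, covers 2.33% of the exonic length of KIF24 and was itself lower (log2 fold change -0.50 ± 0.09, edgeR adjusted p = 1.39e-04). At its mean density the shared bases would hold 100 and 110 counts under siControl against 73.7 and 53.4. KIF24 held 415 and 335 counts against 303 and 250, and how many came from UBAP1 was not tested. KIF12, KIF19 and KIF25 held at most 8 counts in any library and were not tested.

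**Figure D4:**
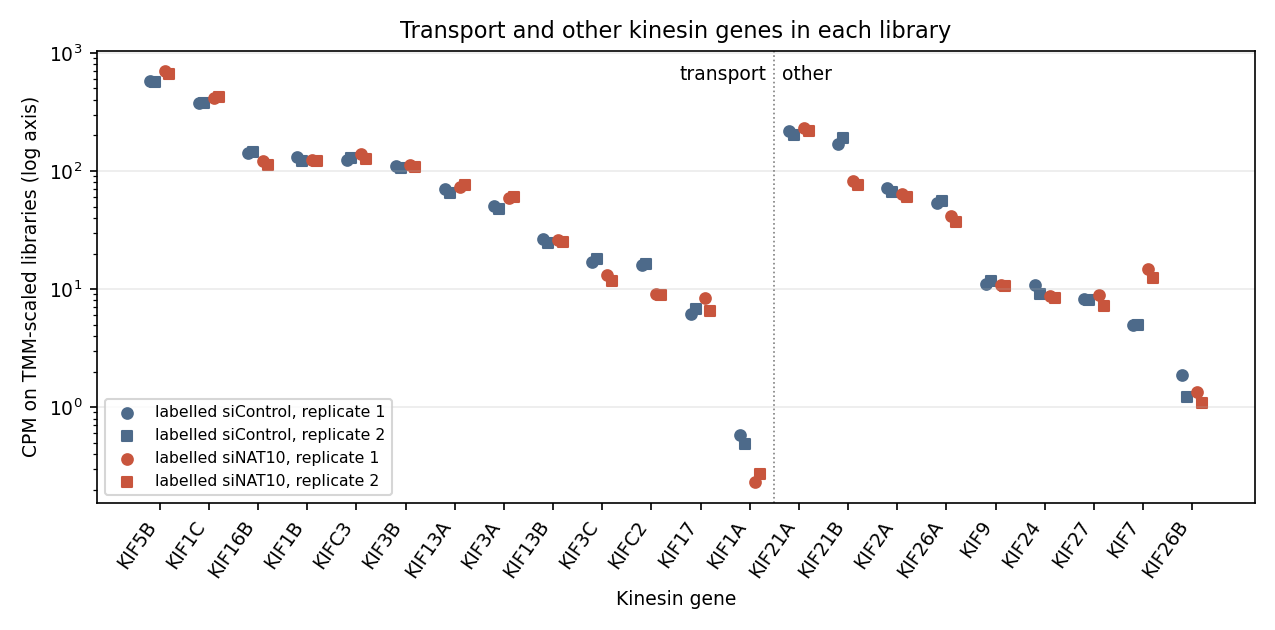
CPM (log axis) of the tested transport kinesin genes (left of the dotted line) and other kinesin genes (right) in the 4 libraries, with circles for replicate 1 and squares for replicate 2. KIF21B, KIFC2 and KIF7 show the widest separation between the groups among the genes called.

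The share of all counts held by kinesin rows was higher in the libraries labelled siNAT10, as was the mitotic part of it. Kinesin rows held 0.406% and 0.399% of all counts under siControl, against 0.443% and 0.432% under the siNAT10 label. Within these, mitotic members made up 43.3% and 43.7% under siControl against 50.7% and 51.8%. The 95% Wilson intervals ran from 43.1 to 43.6, 43.5 to 44.0, 50.5 to 51.0 and 51.5 to 52.1%. They cover counting error only and take each count as a separate draw, so they would be too narrow if both mates of a pair were counted. Transport members made up 42.5% and 42.1% against 39.2% and 38.7%, and other members 14.2% and 14.1% against 10.1% and 9.55%. The ratio of mitotic to transport counts was 1.02 and 1.04 under siControl against 1.29 and 1.34, and the groups did not overlap. The summed level of transport members was 1649 and 1632 CPM against 1803 and 1744 CPM, much of it KIF5B. Other members summed to 549 and 548 CPM against 462 and 431 CPM. These sums follow the most abundant genes of each class and were not tested.

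**Figure D5:**
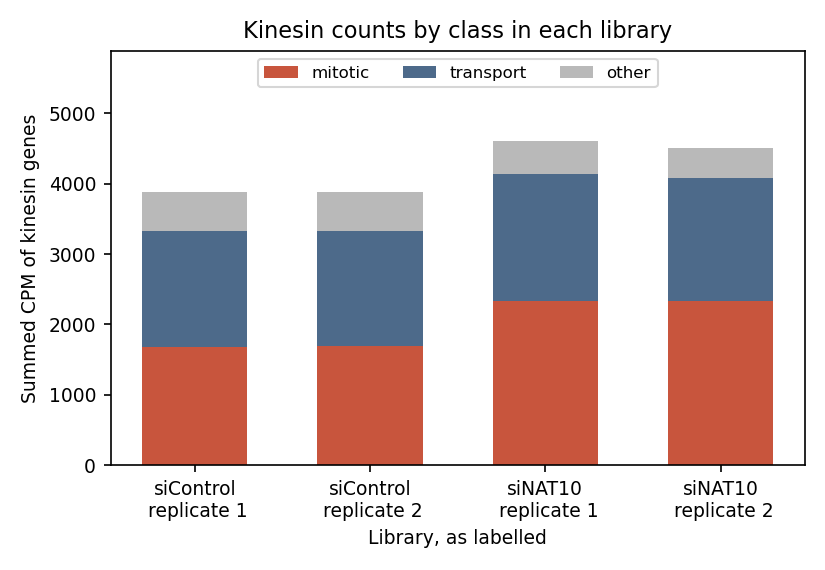
Summed CPM of kinesin genes in each library (bars from 0), divided into mitotic, transport and other members. The mitotic part is 1679 and 1694 CPM in the control libraries and 2333 and 2337 CPM in those labelled siNAT10.

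Levels between genes were compared as CPM per kilobase of deposited exonic length. In siControl the order began with KIF5B (98.0, SD 1.06, n = 2), KIF2C (70.1, SD 2.43), KIFC1 (69.6, SD 2.08), KIF11 (44.2, SD 6.16) and KIF1C (43.9, SD 0.228). KIF2C and KIFC1 differed by less than their spread, as did KIF11 and KIF1C. In the libraries labelled siNAT10 the order began with KIF5B (116, SD 4.34), KIFC1 (100.3, SD 1.14), KIF2C (88.4, SD 2.33), KIF20A (72.4, SD 0.922) and KIF1C (48.8, SD 0.457). KIF20A moved from rank 6 to rank 4 of the 40 members, KIF23 from 14 to 10, KIF11 from 4 to 7 and KIF21B from 15 to 22.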

How the data were processed

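RNA sequencing counts per gene were used for 4 libraries of SAS cells, 2 labelled siControl and 2 labelled siNAT10, grouped by sample title. Tools named in the submitters' processing notes are fastp 0.23.4, STAR 2.5.3a and featureCounts, with GRCh38 as the build. The deposited values are raw counts in 1 table of 35767 rows. For annotation release, strand setting and handling of mates the sources used here say nothing. Between 72.0% and 73.5% of counts from 1 to 50 were even; whether both mates of a pair were counted was not tested further, and halving the counts was an alternative. Deposited gene length was used for values per kilobase. A floor of 3 counts was 0.0788 to 0.102 CPM.

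Counts were tested in R 4.3.3 with edgeR 4.0.16 (TMM, filterByExpr, robust quasi-likelihood fit, group only, two-sided, Benjamini-Hochberg over 20098 rows, threshold 0.05), checked on simulated data. SE is the log2 fold change over the root of F. Alternatives were scaling by totals, DESeq2 size factors, DESeq2 1.42.0, a 50-count filter, no filter, halved counts, a replicate block, each library left out, and other class borders. Libraries of a group differed beyond sampling noise (chi-square per degree of freedom 7.94 and 4.77). Members, classes and lists were chosen with earlier results of these data known. Per-library values are given for tested mitotic members, called others reaching 5 CPM and uncalled others of at least 30 CPM, and for some lower ones. Up to 4 called genes per companion list are named, those of most lists with group means or the log2 fold change only. Protein sequences were not used here. The marker lists found 11 of 12 epithelial, 10 of 10 neuronal, 7 of 7 fibroblast, 4 of 6 leukocyte and 4 of 4 endothelial genes. Fibroblast markers summed to 30.7 to 37.7 CPM per library, mostly COL1A1, leukocyte markers to 50.6 to 54.1, mostly CD68, and endothelial markers to 2.52 to 3.76. Neuronal markers summed to 37.9 and 39.7 CPM under siControl against 51.6 and 51.9 CPM, mostly TUBB3.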

Additional observations from a re-analysis of the deposited data

How the results depend on the processing

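All 19 called members kept their sign in the 11 refits, and 12 kept their call in each; of 16 uncalled members, 14 were never called. Scaling by library totals alone gave 7 mitotic, 3 transport and 1 outside-rule kinesin calls, and medians of 0.32 and -0.082 for mitotic and transport members. The cause was not tested, beyond the shift of all rows by that scaling. The DESeq2 test called 4 regulators and 5611 rows, against 8120. With a library left out, calls ranged over 8 to 10 mitotic, 3 to 6 transport, 1 to 2 outside-rule, 1 to 3 light chain and 6 to 11 S phase genes, the lowest counts of transport, light chain and S phase genes without siNAT10 replicate 2, and the mitotic median over 0.37 to 0.52. Those fits assume that a lone library varies like the other group. Per kilobase, the mitotic share of kinesin counts was 56.1% and 56.9% under siControl and 62.8% and 63.9% under the siNAT10 label (in that order below), transport shares 34.0%, 33.4%, 30.2% and 29.5%, and other shares 9.88%, 9.66%, 7.0% and 6.59%. Counting KIF2A as mitotic left 11 calls, and adding KIF21A, KIF21B and KIF26A to transport gave 7. Same-numbered libraries did not deviate together (r = -0.026 across genes), and the replicate block gave 17 member calls (9 mitotic), losing KIF15 (adjusted p = 0.0552) and KIF22 (0.0707), and 8254 rows. KLC1 lost its call under the block too. Of the members without an overlapping row, 4 of 6 mitotic were higher, 1 of 7 transport was higher and 2 lower, and 2 of 4 other were lower.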
